A study of Mus musculus with 22 samples.

Results

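The genes described are 9 receptors and adaptors of natural killer (NK) cells, grouped here as activating: Ncr1, Fcgr3, Fcer1g, Cd247, Cd244a, Slamf6, Slamf7, Sh2d1a and Sh2d1b1. They were chosen as the NKp46, Fc receptor and SLAM receptors with their signalling partners, each found by its Ensembl identifier in the count tables, and are 9 of the 78298 genes listed there. The rule itself uses no measured value. The study sequenced RNA from mouse splenic NK cells and from Panc02, a mouse pancreatic cancer line, and its title asks how sex bears on NK cell immunity against this cancer. NK cells of each sex were taken after 24 h of co-culture with Panc02 and interleukin-2 (IL-2), after 24 h with IL-2 alone (monoculture), or fresh with no treatment, with 2 libraries per sex and condition. Panc02 tumours grown as allografts came from 4 female and 4 male hosts, and Panc02 cells cultured alone gave 2 libraries. The labels give neither strain nor age, and name no allele or genotype. Fresh cells had their RNA taken on oligo(dT) beads and cultured cells with TriZOL, so culture and extraction cannot be told apart. The labels do not say that each library came from its own animal, and p-values then reflect only how far these libraries differ, which may be technical.

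NK cells kill when signals from activating receptors outweigh those from inhibitory ones. NKp46, the product of Ncr1, signals through partner chains such as FcRγ (Fcer1g) and CD3ζ (Cd247), whose ITAM motifs recruit the kinases Syk and ZAP-70. CD16, the IgG receptor encoded by Fcgr3, signals through FcRγ. The SLAM receptors 2B4 (Cd244a), Ly108 (Slamf6) and CRACC (Slamf7) instead carry tail motifs that bind the small SH2 adaptors SAP (Sh2d1a) or EAT-2 (Sh2d1b1), and CRACC is known for signalling through EAT-2. All of these genes but Ncr1 and Sh2d1a lie on mouse chromosome 1.

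Promoter windows of 4 genes are shown as examples of genes that were lower (Ncr1, Slamf7) or higher (Fcer1g, Sh2d1b1) in culture. Each window runs from 250 bases before to 50 bases after the first listed RefSeq start, on the gene's strand, in build GRCm38.p6, which differs from the GRCm39 build of the counts. Capitals mark the RUNX motif TGTGGT on either strand. RUNX factors are known regulators of NK cell genes.
Ncr1, chr7:4337465-4337764, plus strand: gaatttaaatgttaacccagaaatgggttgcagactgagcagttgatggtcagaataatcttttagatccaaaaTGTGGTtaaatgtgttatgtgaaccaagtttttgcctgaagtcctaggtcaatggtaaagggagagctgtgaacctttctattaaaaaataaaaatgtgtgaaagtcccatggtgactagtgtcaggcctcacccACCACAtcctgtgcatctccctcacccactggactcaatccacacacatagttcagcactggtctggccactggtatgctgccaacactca
Slamf7, chr1:171648950-171649249, minus strand: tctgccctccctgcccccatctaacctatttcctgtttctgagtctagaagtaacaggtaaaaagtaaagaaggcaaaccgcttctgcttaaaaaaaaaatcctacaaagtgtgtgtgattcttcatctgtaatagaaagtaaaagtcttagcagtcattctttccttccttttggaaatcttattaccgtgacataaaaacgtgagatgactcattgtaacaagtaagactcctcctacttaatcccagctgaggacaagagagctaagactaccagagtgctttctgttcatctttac
Fcer1g, chr1:171234300-171234599, minus strand: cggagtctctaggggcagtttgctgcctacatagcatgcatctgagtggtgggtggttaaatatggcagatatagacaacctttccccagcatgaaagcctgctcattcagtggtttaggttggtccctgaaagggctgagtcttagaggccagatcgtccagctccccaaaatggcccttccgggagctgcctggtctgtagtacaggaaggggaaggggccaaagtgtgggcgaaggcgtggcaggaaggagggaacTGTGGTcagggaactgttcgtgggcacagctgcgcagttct
Sh2d1b1, chr1:170277068-170277367, plus strand: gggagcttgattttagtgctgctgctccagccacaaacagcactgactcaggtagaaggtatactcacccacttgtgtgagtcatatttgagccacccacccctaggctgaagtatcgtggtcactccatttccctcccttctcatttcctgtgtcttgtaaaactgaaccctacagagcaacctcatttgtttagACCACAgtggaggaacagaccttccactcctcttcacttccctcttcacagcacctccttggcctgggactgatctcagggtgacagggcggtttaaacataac
The Ncr1 window held 2 matches, 176 and 41 bases before the start. Sh2d1b1 held 1 match, 54 bases before the start, and Fcer1g held 1, just after the start, while Slamf7 held 0. The windows of Cd247, Fcgr3, Cd244a and Slamf6, which are not shown, also held 0. Of 32851 promoter windows of the same length, 16.8% held the motif. The STAT motif TTCNNNGAA, which reads the same on both strands, was in 0 of the 4 windows shown and in 8.3% of all windows. These matches describe letters only.

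Total counts per library were 34357879 to 46799030 in co-culture, 14624113 to 46170885 in monoculture, 13025549 to 37201687 in fresh cells, 26140269 to 42078638 in allografts and 42123781 and 46842646 in cultured Panc02. The labelled cell type was checked on 11 NK markers, which summed to 12927 to 14483 CPM (a gene's counts scaled to the same total in every library) in monoculture and 12218 to 13038 in fresh cells. The 12 T cell markers summed to 518 to 617 CPM in monoculture and 345 to 520.2 CPM in fresh cells, mostly the T cell receptor constant genes Trbc1 and Trbc2 with Cd28, while Cd3e, a chain of the T cell receptor complex, was at most 0.398 CPM in those 8 libraries. The 11 macrophage and monocyte markers summed to 113 to 196 CPM in monoculture and 197 to 261 CPM in fresh cells. Most of that was Itgam, which NK cells also express, and C1qa was at most 0.232 CPM. The 7 erythroid markers summed to 223 to 427 CPM in monoculture and 672 to 1599.7 CPM in fresh cells. The 5 platelet markers summed to 33.2 to 76.4 and 238 to 436 CPM. Other cell types are given below. Co-culture libraries were mostly Panc02 RNA: 290 genes found in NK cells and not in cultured Panc02 stood at 2.83% and 3.30% of their monoculture level with female NK cells and at 2.01% and 1.74% with male NK cells.

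After 24 h with IL-2, the chain Fcer1g and both SH2 adaptors rose, while the receptors Ncr1, Slamf6 and Slamf7 fell. Cd247 and Fcgr3 rose by less, and Cd244a did not pass the test. By edgeR's quasi-likelihood test with Benjamini-Hochberg adjustment at 0.05, 5 of the 9 genes were called higher and 3 lower in monoculture than in fresh cells. Of the 19623 genes tested, 45.2% were called, 23.1% higher and 22% lower, so a call in itself sets these genes little apart. The median log2 fold change was 0.20 over the 9 genes and 0.01 over all genes tested. In bulk RNA, fewer cells of a type and less RNA per cell cannot be told apart.

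Ncr1 (chromosome 7, 4340723 to 4348163, plus strand, GRCm39), which encodes the NK receptor NKp46, was at 393 and 414 CPM in female and 457 and 408 CPM in male monoculture. Fresh cells had 736 and 785.8 CPM in female and 669.9 and 624 CPM in male libraries. All 4 monoculture libraries lay below all 4 fresh ones, and the log2 fold change was -0.65 ± 0.06 (SE, edgeR, adjusted p = 1.12e-07). Fcgr3 (chromosome 1, 170878743 to 170892504, minus strand), the CD16 receptor through which NK cells recognise antibody-coated targets, was at 56.1 and 62.2 CPM in female and 53.4 and 59.4 CPM in male monoculture. In fresh cells it was at 56.4 and 58.6 CPM in female and 44.2 and 40.4 CPM in male libraries. The groups overlapped because the fresh female libraries sat among the monoculture ones, and the rise was 0.33 ± 0.07 on the log2 scale (edgeR, adjusted p = 0.00127). Multi-mapping reads were counted, so Fcgr3 values may share reads with its close relatives among the Fc receptors.

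**Figure D1:**
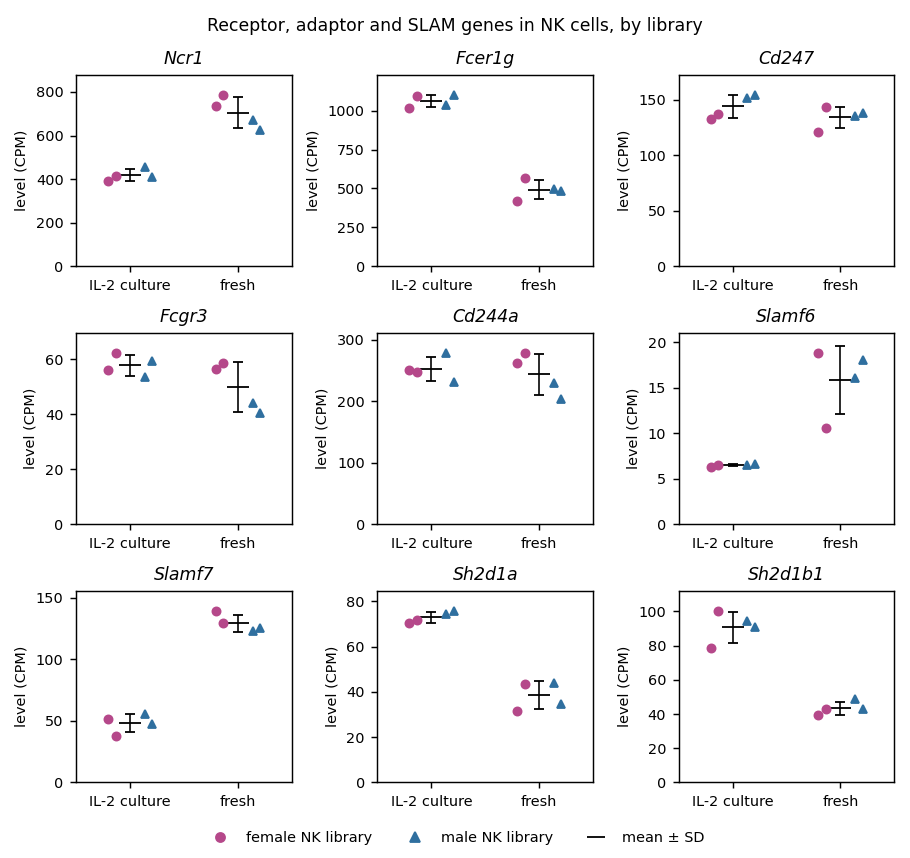
Level in CPM (linear axis from 0) of each of the 9 genes in IL-2 monoculture and fresh NK libraries, with circles for female and triangles for male libraries and bars for mean ± SD over 4 libraries. Fcer1g, Sh2d1a and Sh2d1b1 are higher in all 4 monoculture libraries, Ncr1, Slamf6 and Slamf7 are lower in all 4, and the groups overlap for Cd247, Fcgr3 and Cd244a.

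Fcer1g (chromosome 1, 171057141 to 171061934, minus strand), the FcRγ chain shared by NKp46 and CD16, was the gene of the 9 with the largest rise. It was at 1018 and 1092 CPM in female and 1039 and 1099.8 CPM in male monoculture, against 422 and 567 CPM in female and 496 and 482 CPM in male fresh cells. The groups were far apart, with a log2 fold change of 1.21 ± 0.07 (edgeR, adjusted p = 3.14e-09). Cd247 (chromosome 1, 165616250 to 165704846, plus strand), the CD3ζ chain, was at 133 and 137 CPM in female and 152 and 154 CPM in male monoculture, against 121 and 143 CPM in female and 135 and 138 CPM in male fresh cells. These ranges overlapped, and the rise of 0.20 ± 0.06 on the log2 scale (edgeR, adjusted p = 0.0122) lost its call without fresh female 1, with 0.14 and an adjusted p = 0.0642.

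The pair of ITAM chains therefore differed in its balance within each library. Per kilobase of exon, the log2 ratio of Fcer1g to Cd247 was 5.55 and 5.60 in female and 5.38 and 5.44 in male monoculture. It was 4.41 and 4.59 in female and 4.48 and 4.41 in male fresh cells, so the 2 conditions did not overlap. The means were 5.49 ± 0.10 in monoculture and 4.47 ± 0.09 in fresh cells (SD, n = 4 each), a difference of 1.02. The exact permutation p (two-sided) was 0.0286, and 4 against 4 values cannot give a smaller one. The SH2 adaptor pair gave no such shift: the log2 ratio of Sh2d1b1 to Sh2d1a was 1.42 ± 0.14 in monoculture and 1.30 ± 0.16 in fresh cells, a difference of 0.12 (exact permutation p = 0.314, n = 4 each).

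**Figure D2:**
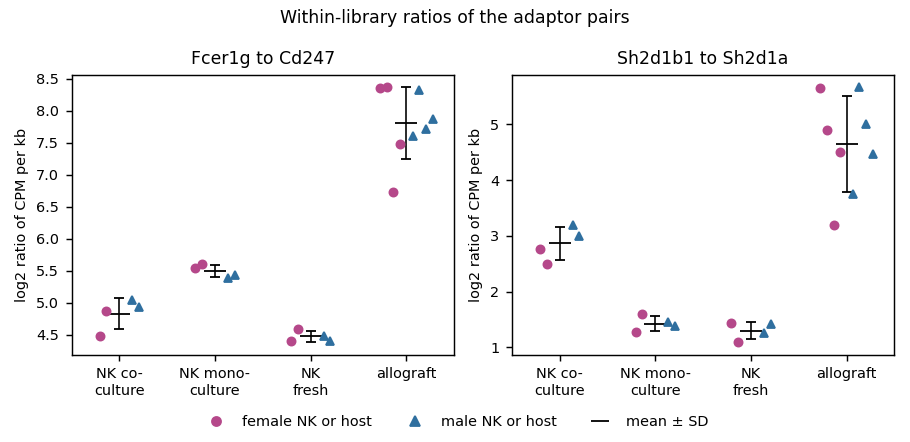
Log2 ratio of CPM per kb of Fcer1g to Cd247 (left) and of Sh2d1b1 to Sh2d1a (right) in each NK library and allograft, with circles for female and triangles for male NK cells or hosts and bars for mean ± SD over 4 NK libraries or 8 allografts. The Fcer1g to Cd247 ratio averages 4.83 in co-culture, 5.49 in monoculture, 4.47 in fresh cells and 7.81 in allografts. The Sh2d1b1 to Sh2d1a ratio averages 2.86 in co-culture, 1.42 in monoculture, 1.30 in fresh cells and 4.64 in allografts. Cultured Panc02 has 257 counts of Sh2d1b1 and 0 of Sh2d1a, so the co-culture and allograft ratios may include Panc02 reads.

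Of the 3 SLAM receptors, Slamf7 and Slamf6 fell and Cd244a held no call. Slamf7 (chromosome 1, 171459971 to 171480603, minus strand), the self-ligand receptor CRACC, was at 51.8 and 37.9 CPM in female and 55.5 and 47.4 CPM in male monoculture. Fresh cells had 139 and 129.8 CPM in female and 123 and 125 CPM in male libraries. The highest monoculture library was below every fresh one, with a log2 fold change of -1.33 ± 0.09 (edgeR, adjusted p = 7.02e-09).

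Slamf6 (chromosome 1, 171745082 to 171780737, plus strand), the self-ligand receptor Ly108, was low throughout. It was at 6.36 and 6.53 CPM in female and 6.52 and 6.58 CPM in male monoculture, against 18.8 and 10.6 CPM in female and 16.1 and 18.1 CPM in male fresh cells. The groups did not overlap, fresh female 2 being the lowest fresh library, and the fall was -1.20 ± 0.17 (log2 fold change, edgeR, adjusted p = 2.41e-05). Cd244a (chromosome 1, 171386761 to 171437314, plus strand) encodes 2B4, the receptor for CD48. It was at 251 and 247 CPM in female and 278 and 232 CPM in male monoculture, against 263 and 278 CPM in female and 229.5 and 204 CPM in male fresh cells. The ranges overlapped, and the difference of 0.16 ± 0.06 on the log2 scale had an adjusted p = 0.0544 (edgeR). It passed without fresh male 4 (0.20, adjusted p = 0.0334) or monoculture male 5 (0.23, adjusted p = 0.00939). Ly9 overlaps Cd244a on the other strand, and the counts were made by strand.

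Both SH2 adaptors rose by about as much as Fcer1g. Sh2d1a (X chromosome, 41591330 to 41618207, plus strand), the SAP adaptor that links SLAM receptors to the kinase Fyn, was at 70.4 and 71.6 CPM in female and 74.5 and 75.7 CPM in male monoculture. Fresh cells had 31.6 and 43.5 CPM in female and 43.9 and 34.9 CPM in male libraries, all below monoculture, and the log2 fold change was 1.04 ± 0.09 (edgeR, adjusted p = 2.44e-07). Sh2d1b1 (chromosome 1, 170104889 to 170114338, plus strand), the EAT-2 adaptor, was at 78.6 and 100.1 CPM in female and 94.1 and 90.8 CPM in male monoculture. It was at 39.6 and 42.9 CPM in female and 48.7 and 42.8 CPM in male fresh cells, again without overlap, a rise of 1.17 ± 0.08 on the log2 scale (edgeR, adjusted p = 6.58e-09). Sh2d1b2 is a near-identical neighbour whose reads could be shared with it, and was at 4.16 ± 1.28 CPM in monoculture and 2.84 ± 0.52 CPM in fresh cells (SD, n = 4 each).

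Compared per kilobase of exon, the level of Fcer1g was the highest and that of Slamf6 the lowest in both conditions. In monoculture the order of levels was Fcer1g (1215 ± 45.7 CPM per kb), Ncr1 (271 ± 17.8), Cd244a (51.6 ± 3.96), Sh2d1b1 (35.7 ± 3.57), Fcgr3 (33.3 ± 2.19), Cd247 (27.0 ± 1.99), Sh2d1a (13.3 ± 0.45), Slamf7 (10.5 ± 1.66) and Slamf6 (0.60 ± 0.01). Sh2d1b1 and Fcgr3 differed by less than their spread there. In fresh cells the order of levels was Fcer1g (563 ± 68.0 CPM per kb), Ncr1 (457 ± 46.4), Cd244a (49.9 ± 6.83), Fcgr3 (28.7 ± 5.16), Slamf7 (28.2 ± 1.54), Cd247 (25.2 ± 1.78), Sh2d1b1 (17.1 ± 1.50035), Sh2d1a (6.99 ± 1.13) and Slamf6 (1.47 ± 0.34; SD, n = 4 each). Fcgr3, Slamf7 and Cd247 were within 1 SD of Fcgr3's mean of each other. Slamf7 thus stood above both SH2 adaptors in fresh cells and below both in monoculture. The lengths are summed exon lengths, and which isoforms were used was not measured.

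Genes downstream of these receptors moved both ways in culture. Of 25 genes of ITAM signalling, 5 rose and 10 fell, with a median log2 fold change of -0.12. By edgeR, the kinase Lck fell by 0.97 ± 0.06 and the phospholipase Plcg2 by 0.57 ± 0.06 on the log2 scale. The phosphoinositide kinase subunit Pik3cd rose by 0.57 ± 0.06 and the scaffold Lcp2, which encodes SLP-76, by 0.59 ± 0.06. Btk, a kinase of B and myeloid cells, fell most (-4.07 ± 0.15), to 1.77 ± 0.47 CPM in monoculture, against 32.3 ± 2.58 CPM in fresh cells (SD, n = 4 each). Of the kinases that bind phosphorylated ITAMs, Syk fell by 0.18 ± 0.06 (adjusted p = 0.0176), while Zap70 held no call (-0.02, adjusted p = 0.865).

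Of 7 other SLAM genes, 6 were tested, of which 2 rose and 4 fell, with a median log2 fold change of -0.35. Cd84 rose by 0.27 ± 0.06 and Sh2d1b2 by 0.64 ± 0.25 (edgeR, adjusted p = 0.0499). Slamf8 fell by 4.65 ± 0.90, Slamf1 by 3.52 ± 0.34, Ly9 by 0.48 ± 0.06 and Cd48, the ligand of 2B4, by 0.22 ± 0.08. Of 9 other Fc receptor genes, 6 were tested and 4 fell, with a median log2 fold change of -2.30. The inhibitory IgG receptor gene Fcgr2b fell by 2.47 ± 0.09, to 12.2 ± 1.35 CPM in monoculture, against 73.2 ± 8.28 CPM in fresh cells (SD, n = 4 each). Fcrl1 (log2 fold change -2.44), Fcgrt (-2.09) and Fcrla (-2.16) also fell. Of 7 inhibitory phosphatase and kinase genes, 3 rose and 3 fell, with a median of -0.10. Ptpn6, which encodes SHP-1, rose by 0.96 ± 0.06, Ptpn22 by 0.36 ± 0.06 and Inpp5d by 0.30 ± 0.06, while Dgka, a kinase that removes diacylglycerol, fell by 1.20 ± 0.08, Csk by 0.46 ± 0.05 and Ptpn11 by 0.38 ± 0.06. Cfp, the gene of properdin, a reported NKp46 ligand, fell by 0.49 ± 0.17 (edgeR, adjusted p = 0.0302).

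Marker sums of other cell types also differed between the conditions, most of them lower in monoculture and that of T cells higher. The 6 B cell markers summed to 1.27 to 5.18 CPM in monoculture and 10.6 to 21.0 CPM in fresh cells, with 0 of 6 at 0 in either condition. The 6 dendritic cell markers summed to 8.19 to 9.23 CPM in monoculture, with 2 of them at 0, and to 38.9 to 45.8 CPM in fresh cells, with 1 at 0. The 5 platelet markers summed to 33.2 to 76.4 CPM in monoculture and 238 to 436 CPM in fresh cells. The 7 erythroid markers summed to 223 to 427 CPM in monoculture and 672 to 1599.7 CPM in fresh cells, and no platelet or erythroid marker was at 0. The 5 mast cell and basophil markers, cells that also express Fcer1g, summed to 113 to 166 CPM in monoculture and 181 to 275 CPM in fresh cells, mostly Kit, with none at 0 and 3 of the 4 tested called lower. The 7 neutrophil markers summed to 12.2 to 197 CPM in monoculture and 16.3 to 287 CPM in fresh cells, with none at 0. The T cell sums given above overlapped only at fresh female 1, and of the 10 T cell markers tested 4 rose and 3 fell. Trac rose by 1.44 ± 0.18, Trbc2 by 0.95 ± 0.09 and Cd28 by 0.76 ± 0.09 on the log2 scale, while Cd8a (-8.12 ± 0.68), Cd4 (-1.92 ± 0.64) and Cd3d (-0.997 ± 0.29) fell. T cells also express Sh2d1a and Cd247, and the part of T cells in the rise of those genes was not tested. The part of these cells in the lower Btk, Fcgr2b, Slamf1 and Slamf8 was not tested. For Fcer1g and Fcgr3, which macrophages also express, C1qa was at 0 CPM in all monoculture libraries and Csf1r at most 0.141 CPM, against at most 0.232 and 1.097 CPM in fresh cells. The 11 macrophage markers summed to 113 to 196 CPM in monoculture and 197 to 261 CPM in fresh cells, with 3 of 11 at 0 in monoculture and 0 of 11 in fresh cells. Itgam, which NK cells also express, made up most of both sums.

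Between the sexes, 1 of the 9 genes differed in fresh cells and 0 in monoculture. Fcgr3 was higher in female than in male fresh cells, at the CPM values given above, and the female libraries lay above both male ones (log2 fold change 0.43 ± 0.10, edgeR, adjusted p = 0.0185). The 11 macrophage markers summed to 197 and 220.2 CPM in female and 240.1 and 261 CPM in male fresh cells. The 7 neutrophil markers, cells that also express Fcgr3, summed to 16.3 and 42.8 CPM in female and 109.8 and 287 CPM in male fresh cells. The 12 T cell markers summed to 520.2 and 489 CPM in female and 407 and 345 CPM in male fresh cells, with 2 of 10 tested called higher in female cells. The part of these cells in the Fcgr3 difference was not tested. Over all genes 8.59% were called in this comparison, 4.03% higher and 4.57% lower in female cells, so 1 of 9 is close to the background. The call was lost without any 1 of the 4 fresh libraries, with an adjusted p of 0.114 without female 1, 0.0503 without female 2, 0.0608 without male 4 and 0.185 without male 5. In each of these fits the lone library is assumed to vary like the other groups. Cd244a and Ncr1 had the next smallest adjusted p, at 0.0512 (0.30 ± 0.09) and 0.110 (0.22 ± 0.08), and their female fresh libraries also lay above the male ones. Cd244a passed without monoculture male 4 (adjusted p = 0.0387) or male 5 (0.0384), which enter through the shared spread. For the other 6 genes the log2 difference was between -0.21 and 0.10 and the adjusted p from 0.418 to 0.988.

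In monoculture edgeR called 0 of the 9 genes between female and male cells, where 0.0764% of all genes were called, 0.0306% higher and 0.0459% lower. Of the 9, 1 had an unadjusted p under 0.05, Cd247 at -0.20 ± 0.08, and DESeq2 called 0. The change with culture in female cells minus that in male cells was then tested itself. EdgeR called 0 of the 9, where 1.65% of all genes were called, 94 higher (0.479%) and 229 lower (1.17%). With median-ratio scaling the split was 209 and 186. The 3 genes with an unadjusted p under 0.05 were Ncr1 (-0.34 ± 0.11, adjusted p = 0.142), Cd244a (-0.36 ± 0.13, adjusted p = 0.171) and Fcgr3 (-0.38 ± 0.14, adjusted p = 0.209), and DESeq2 called 0. Of the ITAM genes in fresh cells, 7 of 25 were higher and 4 lower in female cells, with a median of 0.00. Lat2 (0.43 ± 0.08) and Vav1 (0.42 ± 0.08) were among those higher, and the ubiquitin ligase gene Cblb was lower (-0.79 ± 0.08). Of 6 other SLAM genes tested, Cd84 was lower (-0.29 ± 0.08), of 6 other Fc receptor genes 0 were called by edgeR, and of 7 inhibitory genes Ptpn6 and Dgka were higher (0.42 ± 0.08 and 0.43 ± 0.11) and Ptpn22 lower (-0.30 ± 0.08).

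In co-culture the question was how these genes stood relative to other NK transcripts, because NK RNA was a small share of each library. Levels were therefore scaled so that the 290 NK-restricted genes stood on average as in monoculture. On that scale Fcer1g was lower and Slamf7 higher in co-culture than in monoculture, and Ncr1, Cd247 and Fcgr3 held no call. EdgeR called 2 of the 9 genes higher and 2 lower, where 44.1% of the NK-restricted genes were called, 23.4% higher and 20.7% lower. The NK-restricted genes also set this scale, so their near-even split follows from it. They were chosen for their level in monoculture, so this share is not an independent background. Of all 20244 genes 89.2% were called, 88.3% higher and 0.978% lower, since Panc02 RNA enters on this scale. The monoculture libraries are the same as in the comparison with fresh cells.

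Fcer1g had 580.5 and 719 NK-scaled CPM with female and 625.015 and 649 with male NK cells in co-culture. Monoculture had 1040.1 and 1091 in female and 1014 and 1104 in male libraries, all higher, and the log2 fold change was -0.72 ± 0.12 (edgeR, adjusted p = 5.85e-10). Slamf7 had 78.7 and 83.5 NK-scaled CPM with female and 88.5 and 104.5 with male NK cells in co-culture, against 53.0 and 37.9 in female and 54.2 and 47.5 in male monoculture. The groups did not overlap, with a log2 fold change of 0.88 ± 0.21 (edgeR, adjusted p = 2.68e-05). Cultured Panc02 had 9 counts of Fcer1g and 0 of Slamf7 over both libraries, which would bring at most 0.878% of the Fcer1g level in any co-culture library. The within-library log2 ratio of Fcer1g to Cd247 was 4.48 and 4.87 with female and 5.04 and 4.93 with male NK cells in co-culture, below every monoculture library. Its means were 4.83 ± 0.24 in co-culture and 5.49 ± 0.10 in monoculture, a difference of -0.66 (exact permutation p = 0.0286, the smallest possible, n = 4 each).

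Sh2d1b1 was called higher in co-culture (1.01 ± 0.17, edgeR, adjusted p = 3.19e-09), but cultured Panc02 also had reads assigned to it. Cultured Panc02 had 2.90 and 2.87 CPM of Sh2d1b1, and co-cultures had 4.43 and 5.75 CPM with female and 4.31 and 3.31 CPM with male NK cells. The Panc02 level would equal 46.4% to 82.8% of the co-culture level. The log2 ratio of Sh2d1b1 to Sh2d1a was 2.86 ± 0.30 in co-culture and 1.42 ± 0.14 in monoculture (SD, n = 4 each). Its co-culture value takes in any such Panc02 reads. With the Panc02 level subtracted, an alternative chosen after seeing the data, the log2 fold change of Sh2d1b1 was -0.45 ± 0.38 (edgeR, adjusted p = 0.378). Fcer1g and Slamf7 kept their calls under it (-0.73, adjusted p = 0.00333, and 0.89, adjusted p = 0.0381, edgeR). For these the subtraction could show little, as cultured Panc02 had 9 counts of Fcer1g and 0 of Slamf7. Any transcripts that Panc02 cells make only in co-culture would not be removed, and were not measured.

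Cd244a was called lower in co-culture, with 203 and 235 NK-scaled CPM with female and 169.7 and 193 with male NK cells, against 256 and 246.5 in female and 271 and 233 in male monoculture. The groups overlapped at female 2 of co-culture and male 5 of monoculture. The log2 fold change was -0.34 ± 0.15 (edgeR, adjusted p = 0.0257). The call was lost after the Panc02 subtraction (adjusted p = 0.0994), with stricter NK-restricted genes (0.0688), and without co-culture female 1 (0.0738), co-culture male 4 (0.0848), monoculture female 1 (0.0637) or monoculture male 4 (0.125). Sh2d1a had 49.6 and 66.6 NK-scaled CPM with female and 50.8 and 51.6 with male NK cells in co-culture, against 71.9 and 71.6 in female and 72.7 and 76.0 in male monoculture. It lay below every monoculture library, but did not pass the test (-0.42 ± 0.21, edgeR, adjusted p = 0.0572). On the NK scale it passed without co-culture female 2 (0.0331) and with the 290 NK-restricted and 9 described genes fitted alone (0.0410), a fit chosen after seeing the data.

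Ncr1 had 495 and 402 NK-scaled CPM with female and 445 and 489.9 with male NK cells in co-culture, against 401 and 414 in female and 446 and 409.6 in male monoculture. These ranges overlapped (log2 fold change 0.13 ± 0.13, edgeR, adjusted p = 0.315). Cd247 (-0.06 ± 0.17) and Fcgr3 (0.05 ± 0.22) likewise overlapped, with adjusted p = 0.731 and 0.817 (edgeR). For Cd247 the sexes went opposite ways. With female NK cells it had 159 and 150 NK-scaled CPM in co-culture, against 136 and 137 in monoculture. With male NK cells it had 116 and 130, against 148 and 155. Whether the change with co-culture differs between the sexes was not tested. Slamf6 had 13, 0, 6 and 2 counts in co-culture, too few for a statement (-0.34 ± 0.49, edgeR, adjusted p = 0.508). Without co-culture female 1 its fitted value was -5.16 (adjusted p = 0.00165), and without female 2 it was 0.20. Between female and male NK cells in co-culture edgeR called 0 of the 9 genes. Of the NK-restricted genes, which set this scale, 4.83% were called, 2.41% in each direction. Of all genes 55.0% were called, 0.37% higher and 54.6% lower, on a scale that shifts Panc02 genes with the NK share of each library. Without NK scaling 250 genes were higher and 4 lower. On the NK scale none of the 9 had an unadjusted p under 0.05, and DESeq2 called 0.

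**Figure D3:**
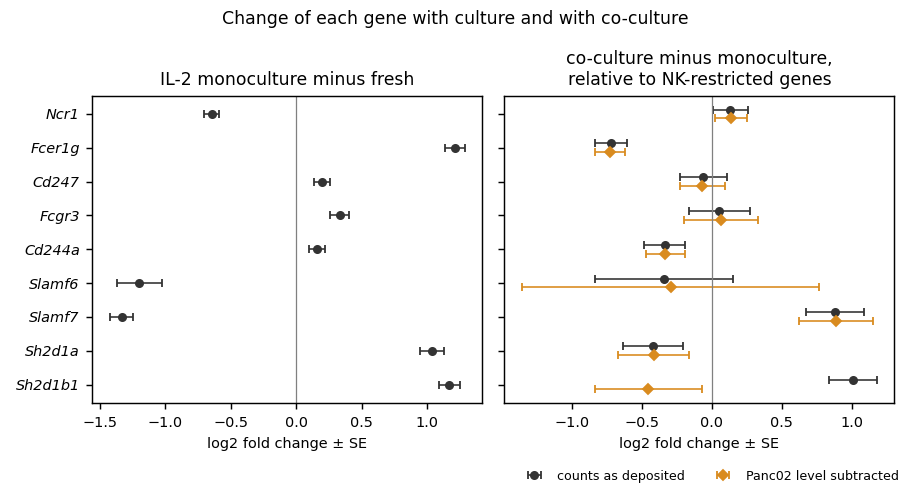
Log2 fold change ± SE (horizontal axes) of each gene for IL-2 monoculture minus fresh cells (left) and for co-culture minus monoculture relative to NK-restricted genes (right), from the same 4 monoculture libraries. On the right, diamonds show the fit after the level of cultured Panc02 was subtracted, with Sh2d1b1 at -0.45. Fcer1g stays near -0.7 and Slamf7 near 0.9, but from these little or nothing was subtracted.

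In tumours, all 9 genes were detected in every allograft, and 6 of them had 0 counts in both cultured Panc02 libraries. Fcer1g and Fcgr3 were the most abundant of the 9, and Ncr1 and Sh2d1a the least. EdgeR called all 9 higher in allografts than in cultured Panc02, where 62.1% of 23264 genes were called and 38.8% were higher and 23.3% lower. The median log2 fold change was 11.10 over the 9 genes and 0.42 over all genes. Allograft counts were deposited as a separate part from those of cultured Panc02 and NK cells. Any difference between the parts cannot be told apart from growth in a host.

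Fcgr3 was at 315, 219, 165 and 239 CPM in tumours of female hosts and 237, 216, 234 and 160.2 CPM in tumours of male hosts. It had 0 counts in cultured Panc02. Taking 3 counts over both Panc02 libraries as the floor, it was 6615-fold higher in allografts. Most fragments add a pair of counts, so a fold against this floor is not a strict lower bound. Fcer1g was at 334, 223, 179 and 224 CPM with female and 184, 188, 249 and 184 CPM with male hosts, against 0.0427 and 0.166 CPM in cultured Panc02. Its log2 fold change was 11.10 ± 0.51 (edgeR, adjusted p = 7.01e-08).

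Ncr1 was at 1.91, 0.901, 0.153 and 2.25 CPM in tumours of female hosts and at 0.826, 0.570, 0.601 and 0.307 CPM in those of male hosts. These are 66, 37, 4 and 89 counts with female and 28, 24, 25 and 12 counts with male hosts, so the values of single tumours are imprecise. The female-host tumours covered a wider range, with both the highest and the lowest tumour among them. Cultured Panc02 had 0 counts of Ncr1, which against the same floor was 27.9-fold higher in allografts. Sh2d1a was 29.6-fold, Slamf6 218-fold, Cd244a 262-fold and Slamf7 557-fold higher against that floor, again not as strict lower bounds.

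Slamf7 was at 25.5, 11.6, 8.65 and 26.6 CPM with female and 21.1, 18.7, 24.7 and 13.4 CPM with male hosts. Cd244a was at 8.52, 4.65, 4.399 and 18.6 CPM with female and 7.05, 9.67, 9.64 and 8.16 CPM with male hosts. In both, the host sexes overlapped over most of their range. Across all 8 tumours Slamf6 lay at 3.99 to 10.2 CPM, Cd247 at 3.59 to 10.3 CPM and Sh2d1a at 0.523 to 1.42 CPM.

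Sh2d1b1 was at 5.81 to 20.1 CPM in allografts (median 11.3), against 2.90 and 2.87 CPM in cultured Panc02, a log2 fold change of 2.08 ± 0.43 (edgeR, adjusted p = 0.00161). It was the gene of the 9 with the smallest change, and the only one with over 100 counts in cultured Panc02 (257). Per kilobase of exon, levels over the 8 allografts were 252 ± 59.9 CPM per kb for Fcer1g, 128 ± 28.0 for Fcgr3, 4.58 ± 1.67 for Sh2d1b1, 4.10 ± 1.49983 for Slamf7, 1.81 ± 0.91 for Cd244a, 1.16 ± 0.41 for Cd247, 0.68 ± 0.22 for Slamf6, 0.61 ± 0.49 for Ncr1 and 0.18 ± 0.06 for Sh2d1a (SD, n = 8). Sh2d1b1 and Slamf7, Cd244a and Cd247, and Slamf6 and Ncr1 differed by less than their spread. Fcgr3 thus ranked above Ncr1 in tumours and below it in NK cells.

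Most ITAM, SLAM and Fc receptor genes were higher in allografts, and fewer of the inhibitory genes were. Of 25 ITAM genes 21 were higher and 1, Cbl, was lower (-0.70 ± 0.17), with a median log2 fold change of 2.49. Syk was higher by 5.11 ± 0.22, and Vav1 (11.09 ± 0.45), Card9 (11.58 ± 0.50) and Btk (12.24 ± 0.56) by more. All 7 other SLAM genes were higher (median 9.25), such as Cd84 at 38.7 ± 8.22 CPM and Slamf8 at 27.3 ± 13.8 CPM in allografts (SD, n = 8), both at 0 in cultured Panc02. Of 9 other Fc receptor genes 8 were higher (median 9.39), with Fcgr2b at 231 ± 53.3, Fcgr4 at 105 ± 47.4 and Fcgr1 at 62.2 ± 13.9 CPM in allografts and 0 in cultured Panc02. Of 7 inhibitory genes Inpp5d (8.97 ± 0.35), Ptpn6 (4.495 ± 0.21) and Csk (0.46 ± 0.12) were higher and Ptpn11 was lower (-0.68 ± 0.10), with a median of 0.22. Cfp was higher by 4.83 ± 0.39 (edgeR, adjusted p = 3.42e-06).

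Marker sums of other cells were also higher in allografts than in cultured Panc02. The 11 macrophage and monocyte markers summed to 4308 to 7993 CPM with female and 3935 to 5735 CPM with male hosts, against 75.1 and 77.7 CPM in cultured Panc02, where 7 of 11 were at 0. The 11 NK markers summed to 37.4 to 139 CPM with female and 45.0 to 91.2 CPM with male hosts, mostly Il2rb and Nkg7, which T cells also express. Cultured Panc02 had 17.8 and 19.9 CPM of the NK sum, nearly all Eomes, with 7 of 11 at 0. The 12 T cell markers summed to 89.2 to 234 CPM with female and 104 to 178 CPM with male hosts, against 0.522 and 0.811 CPM in cultured Panc02, where 10 of 12 were at 0. Which cells carried the 9 transcripts in tumours was not measured.

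The relation of each gene to the macrophage, NK and T cell marker sums was computed over the 8 allografts. These were 27 relations in all, on log2(CPM + 1). Slamf7 followed the NK sum, with Pearson's r = 0.951 (exact permutation p = 0.000248, adjusted p = 0.00670) and Spearman's rho = 0.952 (exact permutation p = 0.00114, adjusted p = 0.0308). Without the 2 tumours farthest from the median NK sum r was 0.949, over a narrower range of that sum. Fcgr3 followed the macrophage sum by Pearson's r = 0.897 (exact permutation p = 0.00151, adjusted p = 0.0204), but Spearman's rho of 0.833 had an adjusted p = 0.118 by the exact permutation test. Without the 2 tumours farthest from the median r was 0.653. Leaving them out also narrows the range of the macrophage sum, so this cannot show whether the relation rests on those tumours. Against the NK sum Fcgr3 gave r = 0.834 (exact permutation adjusted p = 0.0506), rho = 0.810 (adjusted p = 0.118) and r = 0.943 without the 2 farthest tumours. Slamf6 against the T cell sum gave r = 0.864 (exact permutation adjusted p = 0.0506), rho = 0.810 (adjusted p = 0.118) and r = 0.711 without the 2 farthest. Ncr1 against the NK sum gave r = 0.775 (exact permutation adjusted p = 0.0813) and rho = 0.595 (adjusted p = 0.275). Against the macrophage sum it gave r = 0.783 (exact permutation adjusted p = 0.0813) and rho = 0.833 (adjusted p = 0.118). The remaining relations had adjusted p of at least 0.0813 by exact permutation.

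Between host sexes edgeR called 0 of the 9 genes, where 0.0146% of all genes were called, all 3 of them lower with female hosts. None of the 9 had an unadjusted p under 0.05, and DESeq2, which called 291 genes higher and 387 lower, called 0 of the 9. Ncr1 had the largest difference, 1.24 ± 0.67 (adjusted p = 0.404), and the other 8 lay between -0.06 and 0.44. The log2 ratio of Fcer1g to Cd247 was 7.74 ± 0.79 with female and 7.88 ± 0.31 with male hosts (exact permutation p = 0.743, SD, n = 4 each). That of Sh2d1b1 to Sh2d1a was 4.56 ± 1.03 with female and 4.72 ± 0.81 with male hosts (exact permutation p = 0.771, n = 4 each).

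**Figure D4:**
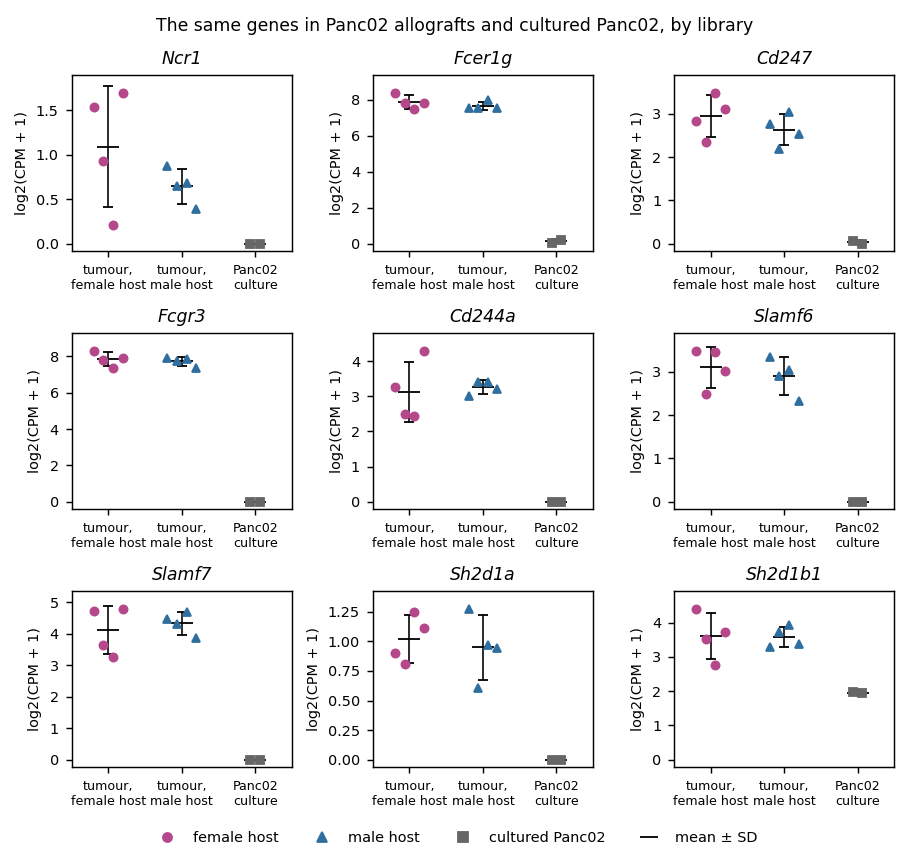
Log2(CPM + 1) of each gene in tumours of female hosts (circles), tumours of male hosts (triangles) and cultured Panc02 (squares), with bars for mean ± SD over 4, 4 and 2 libraries. Every allograft lies above cultured Panc02 for all 9 genes, the host sexes overlap in each panel, and of the genes in cultured Panc02 Sh2d1b1 is the one clearly above 0.

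Across all 22 libraries and 14001 genes with a symbol and at least 5 CPM in a group mean, patterns most like that of Ncr1 on log2(CPM + 1) were those of Klra8 and Klre1 (r = 0.997 each), Klri2 (0.996), Klrb1c (0.994) and Il12rb2 (0.992). The first 4 are lectin-like NK receptor genes, each at 0.455 to 1.39 CPM on average in allografts. Those most like Fcer1g were Ncf4 (0.992), a subunit of the phagocyte oxidase, Arhgdib (0.989), Il10ra (0.989), Srgn (0.988) and the class I gene H2-Q4 (0.988), at 36.6 to 179 CPM on average in allografts. Most of each correlation is the contrast between NK, Panc02 and tumour libraries, so it is given as a description.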

How the data were processed

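The deposited values are read counts per gene for 22 libraries, not normalised by the authors. The tools were HISAT2 2.2.1 with cutadapt 4.4, featureCounts 2.0.6 with SAMtools 1.19.2, and build GRCm39, per the submitters' processing notes. Per the file headers, reads were counted over exons of Ensembl release 113 genes on the reverse strand, each mate on its own, with multi-mapping reads included. Most fragments thus add a pair of counts: 66.4% to 78.6% of genes with 1 to 20 counts had an even count (50% if counts were of independent reads). Counts thus overstate the number of fragments, and floors cover counting error only. A floor of 3 counts is fewer than 3 fragments, so folds against it are not strict lower bounds. Gene lengths, also in the deposited tables, were used to give CPM per kb of exon.

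Levels are CPM over the total gene count. Differences were tested with edgeR 4.0.16 in R 4.3.3 (quasi-likelihood F-test, robust, TMM scaling, filterByExpr, Benjamini-Hochberg at 0.05), and the SE is the log2 fold change over the square root of F. A gene is said to rise or fall only past that test. The 8 fresh and monoculture libraries shared a fit (biological coefficient of variation 0.156, 4 residual degrees of freedom). Co-culture and monoculture shared another (0.152), with library sizes set by TMM over 290 NK-restricted genes, which had at least 20 CPM in each monoculture library and at most 0.05 CPM in each cultured Panc02 library. The spread there is that of mostly Panc02 genes. Allografts were fitted alone (0.363) for host sex and with cultured Panc02 (0.372) otherwise. Ratios and relations used exact permutation tests (SciPy 1.17.1). DESeq2 1.42.0 and other scalings, filters, fits and left-out libraries were tried, and the edgeR scripts were tested on simulated data. The simulated counts were independent, with the same spread throughout. They do not cover the wider spread of allografts, the Panc02 share of co-cultures or counting by mate. All 9 genes are named in every comparison. Of the 5 lists (ITAM signalling, other SLAM genes, other Fc receptors, inhibitory phosphatases and kinase, and the reported NKp46 ligand), up to 4 genes by smallest p and called genes going against them are named, with a few more chosen after their values were seen. The genes and lists were chosen with earlier results of these data known. Promoter windows are from RefSeq, where 8 of the 9 genes matched.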

Additional observations from a re-analysis of the deposited data

Results flagged for a closer look

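Levels of the 9 genes and both ratios in the allografts of each host sex made 22 groups of 4 in which a sample far from the others was looked for. Chance gives about 1 in 20, and 1 was found: Fcer1g in the tumour of male host 7 was at 249.3 CPM, against 184, 188 and 184 CPM in the other 3 tumours of male hosts. Fcgr3 in that tumour, at 234 CPM, was within the range of the other 3.

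Cd244a levels after culture lay on opposite sides of the fresh ones in the sexes. Both female monoculture libraries were below both female fresh ones, and both male monoculture libraries were above both male fresh ones. In CPM, the log2 change in female cells minus that in male cells was -0.35. The tested difference of -0.36 ± 0.13 did not pass (edgeR, adjusted p = 0.171, unadjusted 0.0125).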

How the results depend on the processing

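Leaving out a library leaves some groups with 1 sample, which is then assumed to vary like the other groups. Alternatives with Panc02 subtracted, and with the NK-restricted genes fitted alone, were chosen after seeing the data. Low counts limit Slamf6 in co-culture and Ncr1 and Sh2d1a in allografts. Unless a value below shows it, the cause of a change was not tested.

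For monoculture against fresh cells and allografts against cultured Panc02, no direction changed in 126 values each. Cd244a passed in the first without a filter (adjusted p = 0.0310), without fresh male 4 (0.0334), without monoculture male 5 (0.00939) and with the replicate block (0.0259). With the replicate block 6 of the 9 genes were called higher and 3 lower, with 4466 and 4248 genes in all. Deviations of same-numbered libraries correlated at 0.016 in female and 0.095 in male cells, and the labels do not say what a number marks, so whether the numbers pair the samples is not known. Between co-culture and monoculture, over the NK-restricted genes, they correlated at 0.160 in female and 0.201 in male cells, from 2 numbers per sex, and the block gave 2 higher and 2 lower. For the change with culture by sex, the block called 175 genes higher and 315 lower and 0 of the 9.

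Between the sexes in fresh cells, 2 of the 9 were higher by DESeq2, without a filter and with counts halved, and 0 to 2 with a library left out. All genes numbered 911 higher and 1486 lower by DESeq2, and 143 to 855 and 315 to 1064 with a library left out. In fresh cells Fcer1g was 0.0028 with counts halved. With a library left out Fcer1g ran from -0.22 to 0.12, Slamf6 from -0.79 to 0.13, Slamf7 from -0.031 to 0.15 and Sh2d1a from -0.32 to 0.056. In monoculture Fcer1g ran from -0.12 to 0.0079, Fcgr3 from -0.058 to 0.12, Cd244a from -0.20 to 0.068 and Sh2d1b1 from -0.29 to 0.093. All genes there numbered 17 and 26 by DESeq2, 40 and 69 without a filter and 12 and 11 with 12 libraries fitted.

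For the change with culture by sex, Fcer1g was 0.018 with median-ratio scaling and 0.019 by DESeq2. Sh2d1a was 0.055 with median-ratio scaling, 0.053 by DESeq2 and 0.012 with counts halved. With a library left out Fcer1g ran from -0.14 to 0.17, Slamf6 from -0.19 to 0.76, Sh2d1a from -0.17 to 0.21 and Sh2d1b1 from -0.11 to 0.27. All genes numbered 575 and 393 by DESeq2, 319 and 553 without a filter, 215 and 331 with 12 libraries, and 37 to 207 and 39 to 405 with a library left out.

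Without NK scaling, co-culture called 0 higher and 9 lower, with Ncr1 at -5.18, Fcgr3 at -5.26, Slamf7 at -4.42 and Sh2d1b1 at -4.30, as the Panc02 share of the library makes them. With Panc02 subtracted 1 was higher and 1 lower, with Sh2d1b1 at -0.45, and with stricter NK-restricted genes 1 was lower. With a library left out 1 to 3 were lower, Fcgr3 ran from -0.032 to 0.14 and Slamf6 from -5.16 to 0.20. All genes numbered 7899 and 8180 without NK scaling and 5352 and 2701 with Panc02 subtracted. Between the sexes in co-culture, 4 of the 9 were called higher without NK scaling: Cd247 at 1.02, Cd244a at 0.98, Fcgr3 at 0.88 and Ncr1 at 0.62. Of these Ncr1 turned its direction, as did, without a call, Slamf6 at 0.45, Slamf7 at 0.45 and Sh2d1b1 at 0.41. Sh2d1b1 was 0.43 with Panc02 subtracted. With a library left out 0 to 1 were lower, Ncr1 ran from -0.22 to 0.15, Fcer1g from -0.069 to 0.18 and Slamf6 from -9.80 to 0.98. All genes numbered 250 and 4 without NK scaling, and 21 to 67 and 2310 to 11175 with a library left out.

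The Fcer1g to Cd247 difference between monoculture and fresh cells was 0.983 to 1.06 with a library left out, where an exact permutation test cannot go below 0.0571. Between host sexes it was -0.35 to 0.19, and that of Sh2d1b1 to Sh2d1a -0.52 to 0.30. With a tumour left out, Cd244a ran from -0.52 to 0.37, Slamf7 from -0.31 to 0.19, Sh2d1a from -0.050 to 0.41 and Sh2d1b1 from -0.18 to 0.41. All genes by host sex numbered 291 and 387 by DESeq2 and 3 and 11 without a filter.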
